A study of Caenorhabditis elegans with 2 samples.

Results

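The 612 tRNA genes of the nuclear chromosomes of Caenorhabditis elegans were examined for binding of HSF-1, the worm's heat shock transcription factor. They are all the genes of biotype tRNA in the Ensembl annotation of ce11, among 46890 nuclear genes of every biotype, and each was taken as its gene body plus 200 bp on each side. These windows cover 0.272% of the nuclear genome. Each of the 612 genes also stands at the same place in the RefSeq annotation, which names the amino acid of 607 of them. The chromatin came from whole young adults of 63 h, grown from larvae that had hatched from bleached embryos and were held without food. All worms belonged to strain RW12254, whose own hsf-1 locus carries an inserted TY1::EGFP::3xFLAG tag, and the tagged protein was pulled down through its EGFP. The samples were 2 biological replicates of this 1 group, without an untagged strain or a second stage, and no heat treatment is named for them. Whole animals were used, so binding in more cells and stronger binding per cell cannot be told apart.

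tRNA genes are transcribed by RNA polymerase III from promoters that lie inside the gene. The general factor TFIIIC recognises the internal A and B boxes and places TFIIIB, which contains the TATA-binding protein, just upstream of the start. HSF-1 is known instead for genes of RNA polymerase II, which it binds at heat shock elements made of inverted GAA and TTC repeats.

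Many tRNA genes are exact copies of each other, so the gene bodies below stand for whole families and show what the bound and unbound genes share. They were read from the RefSeq copy of the ce11 genome and run 5′ to 3′ along the tRNA strand. Capitals mark the letters GTTCNANNC, a simple spelling of the B box. The lysine family had 6 of its 14 genes bound and the proline family 7 of 24. The alanine family had 5 of 15 bound, and none of the 11 histidine and 9 leucine genes was bound. The last body is a tRNA pseudogene, a copy annotated as non-functional, and it lacks those letters, which 78.9% of the pseudogene bodies carry.
Lys, T23F1.t1 (V:15465086-15465158, + strand): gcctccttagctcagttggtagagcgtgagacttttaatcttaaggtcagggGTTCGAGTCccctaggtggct
Pro, T23F1.t2 (V:15465225-15465296, - strand): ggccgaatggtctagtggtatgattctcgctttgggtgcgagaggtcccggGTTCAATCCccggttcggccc
Ala, F15G9.t2 (X:9743747-9743818, + strand): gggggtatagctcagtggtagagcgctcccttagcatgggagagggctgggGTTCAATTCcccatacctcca
His, Y65A5A.t4 (IV:16400896-16400967, + strand): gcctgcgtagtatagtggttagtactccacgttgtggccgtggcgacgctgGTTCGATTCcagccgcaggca
Leu, C04E7.t1 (X:353255-353336, - strand): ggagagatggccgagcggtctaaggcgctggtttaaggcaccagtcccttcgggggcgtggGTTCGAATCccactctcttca
pseudogene, Y60C6A.t1 (V:4782229-4782301, - strand): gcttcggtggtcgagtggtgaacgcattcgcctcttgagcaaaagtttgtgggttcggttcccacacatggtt

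HSF-1 peaks lay at 147 of the 612 tRNA genes, a share of 24% (95% Wilson interval 20.8 to 27.6). A gene is called bound here when a summit of the pooled thresholded list, made from both replicates, lies in its window. Counting only summits inside the gene body, without flanks, gave 14.5%. Over all 46890 nuclear genes, again taken with 200 bp on each side, 5.83% were bound. They include 15363 piRNA genes, of which 0.28% were bound, and these lower the share over all genes. Of genome windows of the median tRNA window length, 472 bp, 1.34% held a pooled summit. The promoters of protein-coding genes, taken from 1000 bp upstream to 200 bp downstream of each transcript start, held one in 7.63% of genes. In a window of 472 bp centred on the starts of coding genes the share was 3.56%. The 147 genes were served by 140 peaks, since 26 of them shared a peak with another tRNA gene. These peaks made up 4.77% of the 2935 pooled peaks. Genes that share a peak or a sequence are not independent, and all intervals cover the counting of genes or peaks only.

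Each replicate held tRNA genes in its own thresholded list, replicate 2 more than replicate 1. In replicate 1, 34 tRNA genes (5.56%, 4 to 7.66) held a summit, against 2.28% of all nuclear genes. In replicate 2, 100 tRNA genes (16.3%, 13.6 to 19.5) held one, against 3.83% of all genes. Both lists named 25 tRNA genes (4.08%), against 1.87% of all genes. At least 1 list named 109 tRNA genes. Summits at tRNA windows made up 2.47% of the 1217 peaks of replicate 1 and 4.79% of the 1877 of replicate 2. Of the 147 genes bound in the pooled list, 52 (35.4%) were in neither replicate list, and 14 genes in a replicate list were not in the pooled one.

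The longer ranked lists keep peaks below the threshold on reproducibility. In replicate 1, 399 tRNA genes (65.2%) held a ranked summit, against 40.3% of all nuclear genes, and in replicate 2, 471 (77%), against 50.3%. Of the 147 bound genes, 142 held one in replicate 1 and 146 in replicate 2, which is a description, since they were chosen from a list made from both replicates. The signal, the peak caller's own value, had a median of 38.24 in replicate 1 (17.74 to 113.9) and 55.36 in replicate 2 (25.28 to 145.9). These values are not scaled between lists. Over the 141 genes with a summit in each, the value was higher in replicate 2 at 119. Across these genes Spearman's rho was 0.37 and Pearson's r of the log2 values 0.494, as a description, since the points share 2 libraries and some share peaks. Over all 350 tRNA genes with a ranked summit in each replicate, rho was 0.536 and r was 0.526. In the pooled ranked list, 471 tRNA genes (77%, 73.5 to 80.1) held a summit, against 53.5% of all nuclear genes and 40.8% of the genome windows. By biotype, the share was 79.3% for protein-coding genes, over the whole gene, 74.3% for snoRNA genes and 68.2% for snRNA genes. It was 57.8% for ncRNA genes, 50.2% for miRNA genes and 14.5% for the 15363 piRNA genes. The ranked share of tRNA genes was thus not above that of every class. The piRNA genes are a large part of the 46890 nuclear genes and lower the pooled share over all of them. A share without them was not computed.

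**Figure D1:**
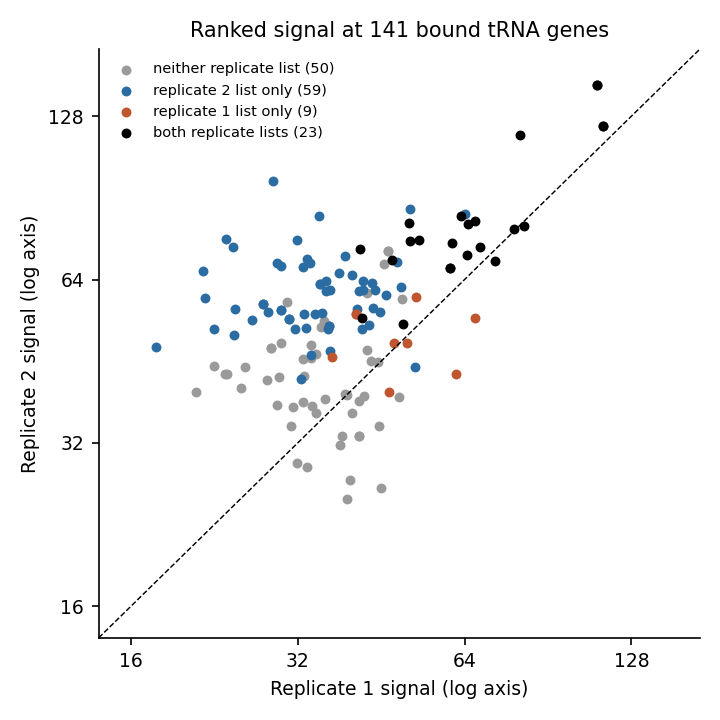
Signal of the strongest ranked summit in the window of each bound tRNA gene, replicate 1 on the x axis and replicate 2 on the y axis, both log axes in the peak caller's units, with the line of equality dashed. Points are the 141 genes with a summit in each replicate, coloured by which thresholded replicate list holds the gene, and 119 of them lie above the line.

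The peaks at tRNA genes were of middle strength. The strongest summit of each bound gene had a median signal of 90.8 (lowest 56.21, highest 263.1), beside 92.57 over all 2935 pooled peaks, whose highest was 8245. Counted once each, the 140 tRNA peaks had a median of 88.58 (lowest 2.004), with quartiles of 77.91 and 105.8. Over all pooled peaks the quartiles were 73.71 and 148, so the upper part of the range was lower at tRNA genes. No tRNA peak stood among the 100 strongest of the list, and the best placed ranked 337. Only 3 stood among the first 500, 59 more among the first 1500, and 78 below. The 324 unbound genes with a ranked summit had a median of 47.29 and a highest value of 77.87, beside 24.35 over all ranked peaks. The values of bound and unbound genes are a description, since the list itself was cut on the peaks' reproducibility.

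Most summits lay on the tRNA genes themselves. The peaks at tRNA windows had a median width of 304 bp, wider than the genes, so summit positions are finer than the peaks. Measured along the tRNA strand, the median summit lay 17 bp inside the gene from its start (quartiles -2.5 and 38.25) over the 140 peaks, while the genes have a median length of 72 bp. Of the 140 summits, 89 (63.6%) lay inside the gene, 36 (25.7%) upstream and 15 (10.7%) downstream. The median was 14.5 bp for the 30 peaks of replicate 1 and 17 bp for the 90 peaks of replicate 2. It was 19 bp for the 433 peaks of the pooled ranked list. The density of pooled summits was 19.4 per 10 kb within gene bodies and 3.7 between 1 and 100 bp away. It was 0.646 from there to 200 bp and 0.193 from 200 to 300 bp, beside 0.293 over the genome. Of the 140 summits, 12 lay within 200 bp of a coding transcript start.

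**Figure D2:**
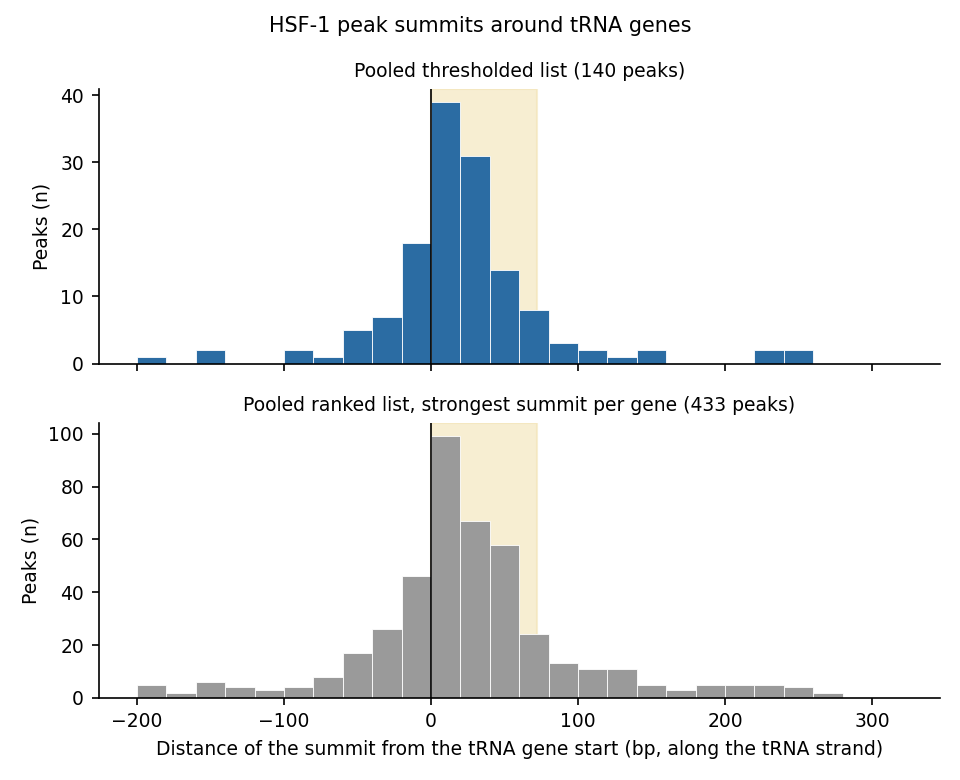
Number of peaks by distance of the summit from the tRNA gene start in bp, along the tRNA strand, for the pooled thresholded list (upper, 140 peaks) and the pooled ranked list (lower, 433 peaks). The black line is the gene start and the shaded band the median gene length of 72 bp, and the medians of 17 and 19 bp fall inside the band.

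The 15 strongest peaks at tRNA genes were chosen by the pooled signal, which both replicates feed, so their values in each replicate are a description. Of the 15, 13 were in both thresholded replicate lists and 2 in that of replicate 2 alone, 7 were in an intron of a coding gene and 8 were intergenic. Chromosome IV held 7 of them, chromosome V held 4 and chromosome X none. The strongest peak (IV:15933258-15933411, signal 263.1) lay at Y105C5B.t2, a glutamate tRNA gene in an intron of srv-16 on the opposite strand, and its window also reached Y105C5B.t3. The ranked signal of Y105C5B.t2 was 111 in replicate 1 and 145.9 in replicate 2. The next (V:15465125-15465202, signal 239.4) had its summit 68 bp inside the lysine gene T23F1.t1, with the proline gene T23F1.t2 also in reach of its window, and was nearest to the coding gene pqn-71, with 113.9 and 123 in the replicates. The third was the intergenic lysine gene Y105C5A.t1 (IV:15793419-15793497, signal 216.5), with 80.61 and 118. Replicate 2 had the higher value at 13 of the 15.

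A further pair of aspartate genes lay within a few kilobases of Y105C5B.t2. Y105C5B.t4 had a pooled signal of 170.4 (81.76 and 80.23 in the replicates) and Y105C5B.t1 one of 152.2 (66.88 and 82.17). The others with a signal above 135 were the lysine gene M01E5.t1 at 169.4, the tryptophan gene Y73F8A.t2 at 148.1 and the alanine gene F44A2.t1 at 145.6. They also included the valine gene Y7A9D.t3 at 141.4, the tyrosine gene C47E8.t1 at 137.2, the isoleucine gene C27A2.t1 at 135.6 and the valine gene F22G12.t1 at 135.1. The glutamine gene B0228.t1 had 133.3, and the alanine gene C06B8.t1 and the aspartate gene Y54G2A.t5 had 132.9 each. F44A2.t1, 38 bp from a transcript start of kvs-3, was the nearest of the 15 to a coding start, so its peak cannot be assigned to the tRNA gene alone. The selenocysteine tRNA gene K11H12.t1 (IV:658181-658266), the single gene of its kind, held a pooled summit of 110.3, with 49.64 and 53.07 in the replicates. It lies in an intron of K11H12.8, 75 bp from a coding transcript start, so its peak cannot be assigned to the tRNA gene alone either.

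Some genes outside the pooled list had ranked signals above the lowest of a bound gene, 56.21. Those named here were chosen for their high signal, while the list was cut on reproducibility. The highest ranked signals without a pooled thresholded summit were 77.87 at the threonine gene ZK563.t1, 77.63 at the tyrosine gene ZK1067.t1, 77.59 and 76.58 at the histidine genes Y65A5A.t4 and Y7A9D.t1, and 76.53 at the serine gene Y73F8A.t4. The peaks of ZK1067.t1 differed between the replicates, with no ranked summit in replicate 1 and 62.99 in replicate 2, where it was in the thresholded list. The strongest genes of replicate 1 without a summit in the list of replicate 2 were T04D3.t2 at 66.95, T21B4.t1 at 61.82 and ZC412.t1 at 52.24. Their ranked values in replicate 2 were 54.43, 42.83 and 59.34. The strongest of replicate 2 without one in the list of replicate 1 were T07H6.t2 at 97.05, Y65A5A.t2 at 89.72 and F22G12.t1 at 86.32. In replicate 1 the ranked values were 28.93 at T07H6.t2 and 51.1 at F22G12.t1, while Y65A5A.t2 had no ranked summit.

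tRNA pseudogenes, which have tRNA-like bodies of the same length, were seldom bound. Of the 209 pseudogenes, 7 (3.35%, 1.63 to 6.75) held a pooled summit, 20.7 percentage points fewer than the tRNA genes (95% Newcombe interval of the difference 16 to 24.6). Replicate 1 named 3 of them and replicate 2 named 4, which is 1.44% and 1.91%. In the pooled ranked list, 109 pseudogenes (52.2%) held a summit, against 77% of tRNA genes. The median ranked signal was 29.41 at these pseudogenes and 56.33 at tRNA genes, so below the threshold the contrast was one of degree. Of the genes over 1000 bp from a coding start, 84 of 381 tRNA genes and 4 of 134 pseudogenes were bound (difference 19.1 points, 13.2 to 23.9). The 7 bound pseudogenes had signals of 66.52 to 124.8. They were T08B2.t1, K10B2.t1, C52E12.t1, F19H8.t1, Y22D7AR.t1, Y94H6A.t1 and D1046.t1, and the window of none of them touched a tRNA gene window. The comparison with pseudogenes was added after values were seen.

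The pseudogene windows were also richer in repeats. At least 50% of the window was masked in 49.3% of pseudogenes and 3.59% of tRNA genes. Among pseudogenes masked less than that, 6 of 106 (5.66%, 2.62 to 11.8) were bound. In windows where at least 90% of the 50-mers occur at a single place in the genome, 5 of 154 pseudogenes (3.25%) and 118 of 464 tRNA genes (25.4%) were bound. The letters GTTCNANNC were present in 95.9% of tRNA gene bodies and 78.9% of pseudogene bodies, and in 16.1% of genome windows of 472 bp on either strand. The A box letters, TNGCNNA followed after 2 or 3 bases of any kind by GG, were in 54.2% of tRNA genes and 74.2% of pseudogenes, and both boxes in 52% and 70.3%. This A box spelling was not widened, and it missed whole families such as the large proline and histidine ones. Its shares therefore count these letters and not A boxes as such. Among genes with the B box letters, 24.4% of tRNA genes and 3.03% of pseudogenes were bound (difference 21.3 points, 16.2 to 25.4). The spelling was widened after a first one, GTTCGANNC, had missed families such as proline and alanine. With that spelling the shares were 23.6% and 1.39%.

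Within the tRNA genes, box letters did not separate the bound genes from the others. GTTCNANNC was in 97.3% of the 147 bound and 95.5% of the 465 unbound gene bodies. The A box letters were in 56.5% and 53.5%. A match is a description of letters and not of a factor.

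**Figure D3:**
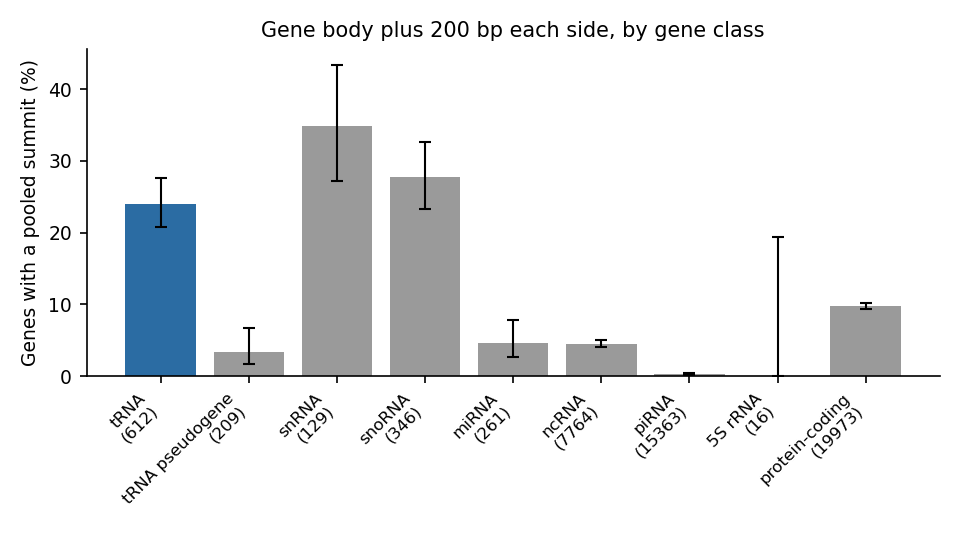
Share of genes with a pooled summit within the gene body plus 200 bp, in percent, by gene class with the number of genes in brackets. Bars are shares and error bars 95% Wilson intervals, with tRNA genes in blue at 24% beside 34.9% of snRNA genes, 27.7% of snoRNA genes and 3.35% of tRNA pseudogenes.

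In the pooled list, tRNA genes shared a high bound share with a pair of other classes of short noncoding genes. The 346 snoRNA genes, whose products guide RNA modification, were bound at 27.7% (difference from tRNA genes -3.73 points, -9.62 to 1.96). The 129 snRNA genes, which encode spliceosomal RNAs, were bound at 34.9% (difference -10.9 points, -20 to -2.41). In the list of replicate 1 the shares were 13.6% of snoRNA genes, 22.5% of snRNA genes and 5.56% of tRNA genes. In that of replicate 2 they were 20.8%, 31% and 16.3%, so tRNA genes stood below both classes in each replicate. The median pooled signal at bound genes was 105.6 for snoRNA genes and 102.3 for snRNA genes. miRNA genes were bound at 4.6% (tRNA genes 19.4 points higher, 14.8 to 23.5), ncRNA genes at 4.5%, piRNA genes at 0.28% and protein-coding genes, over the whole gene, at 9.83%. None of the 16 5S rRNA genes, also transcribed by RNA polymerase III, held a pooled summit, which by counting alone allows a share of up to 18.8%. How much of their sequence occurs at a single place in the genome was not measured. The missing summits therefore cannot tell unbound 5S genes from genes where reads could not be placed. The single gene of the RNase P RNA, rpr-1, which processes tRNA precursors, held a pooled summit.

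Among genes of the RNA polymerase III machinery and tRNA processing, 4 of the 13 found in the annotation had a pooled summit in the promoter window, beside 7.63% of all protein-coding genes. They were rpac-19, a subunit shared with RNA polymerase I (signal 174.6), rpc-2, the second largest subunit (135), tbp-1, the TATA-binding protein (82.87), and hoe-1, the ELAC2 family enzyme that trims the 3′ end of tRNAs (79.13). The other 9 included rpc-1, the largest subunit, brf-1, a part of TFIIIB, the TFIIIC genes tftc-1, tftc-3 and tftc-5, and mafr-1, the worm form of the repressor MAF1.

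Binding was spread over the chromosomes. On chromosome I 27.3% of 66 tRNA genes were bound, on chromosome II 19.3% of 57, on III 25% of 64, on IV 31% of 71 and on V 29.5% of 78. The X chromosome carries 45.1% of the tRNA genes, and 57 of its 276 (20.7%, 16.3 to 25.8) were bound, against 90 of 336 (26.8%, 22.3 to 31.8) on the autosomes. The difference of -6.13 points had an interval of -12.7 to 0.684. Over all nuclear genes the shares were 3.75% on the X chromosome and 6.13% on the autosomes. In replicate 1, 3.26% of the X-linked and 7.44% of the autosomal tRNA genes were in the list, and in replicate 2, 13% and 19%. The median signal of bound genes was 88.32 on the X chromosome and 91.38 on the autosomes.

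X-linked genes near coding genes had the lower share. Within 1000 bp of a protein-coding transcript start, 12 of 80 X-linked tRNA genes (15%) and 51 of 151 autosomal ones (33.8%) were bound, a difference of -18.8 points (-28.8 to -7.01). Over 1000 bp from a start the shares were 23% and 21.1% (difference 1.88 points, -6.48 to 10.1). These splits were chosen after values were seen, and the difference between the 2 differences was not tested.

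Distance to a coding start on its own gave a share of 35.3% (12 of 34) within 200 bp, 25.9% from there to 1000 bp, 25.7% from 1000 to 2000 bp and 19.8% beyond 2000 bp. The share within 200 bp exceeded that over 1000 bp by 13.2 points, with an interval of -1.25 to 30.5. The same difference was 4.89 points by replicate 1 alone and 2.69 by replicate 2 alone. Intronic genes were bound at 25.4% (72 of 283) and intergenic ones at 23.2% (74 of 319), a difference of 2.24 points (-4.59 to 9.13), which was 0.0111 points by replicate 1 alone and -0.673 by replicate 2 alone. Intronic genes on the strand opposite to their host were bound at 30.3% and those on the same strand at 21.9%, a difference of 8.45 points (-1.79 to 18.8). Each of the intervals given here includes 0.

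**Figure D4:**
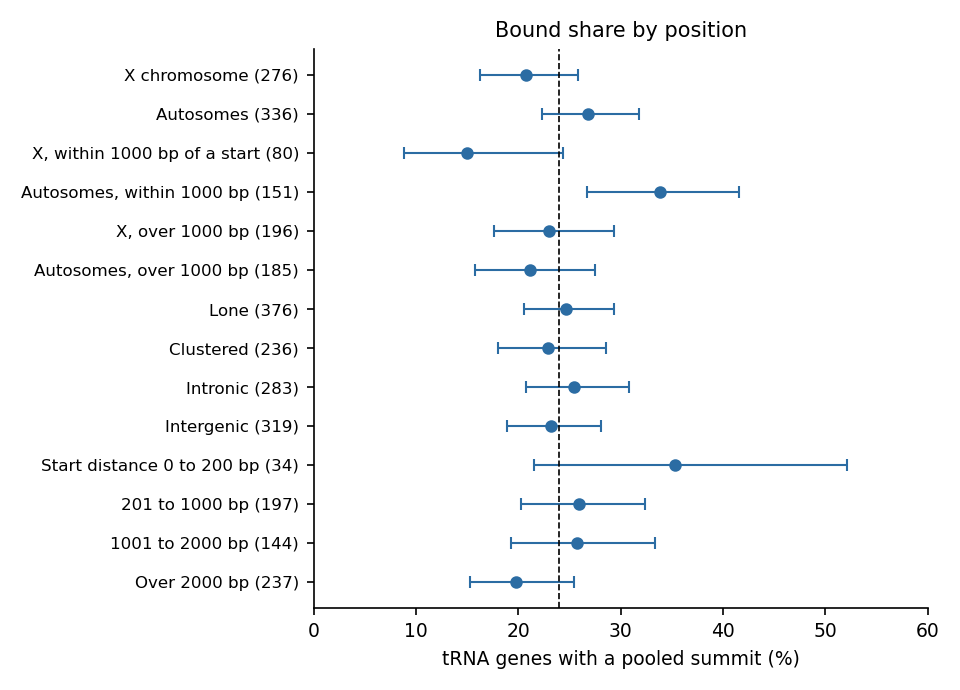
Share of tRNA genes with a pooled summit, in percent, for genes grouped by chromosome, distance to a protein-coding transcript start, clustering and position, with the number of genes in brackets. Points are shares, bars 95% Wilson intervals and the dashed line the share of all 612 genes, 24%, with the X-linked genes within 1000 bp of a start at 15%, the lowest point plotted.

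Clusters, runs of tRNA genes less than 1000 bp apart, held 236 genes in 100 clusters, and 376 genes stood alone. Clustered genes were bound at 22.9% and lone ones at 24.7%, a difference of -1.85 points (-8.57 to 5.22). Counted as units, 37 of the 100 clusters held at least 1 bound gene, but a unit has several windows, so this share cannot be set beside that of lone genes. Genes in clusters of 2 were bound at 26.9% and those in clusters of 3 or more at 15%. The latter minus lone genes gave -9.73 points (-17.5 to 0.53). On the X chromosome 16.3% of clustered genes were bound and on the autosomes 31.7% (difference -15.4 points, -26.3 to -4.46). Lone genes were bound at 24.8% on the X chromosome and 24.7% on the autosomes. Clustered genes thus stood below lone ones on the X chromosome and above them on the autosomes. This split was also chosen after values were seen, and whether the X difference depends on clustering was not tested. None of the 4 clusters with 5 or more genes, all on the X chromosome, held a pooled summit.

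The clusters of 6 show how the largest groups looked below the pooled threshold. The F22F1 cluster (X:8154445-8156707) holds serine, aspartate, methionine and isoleucine genes. Ranked summits were found at 5 of its 6 genes, with a highest pooled signal of 62.16 at F22F1.t2 and F22F1.t3, and the replicate values there were 33.65 and 32.34. Of its genes, F22F1.t5 was in the thresholded list of replicate 2, with a signal of 51.61. The F28H6 cluster (X:14135045-14137010) holds 6 histidine genes and had no pooled ranked summit at any of them. In its windows 8.51% to 88.7% of 50-mers are found at a single place, and 3 of them, F28H6.t3, F28H6.t4 and F28H6.t6, have the lowest shares of all tRNA genes. The K01A12 cluster (X:8623603-8624532), of 5 arginine and cysteine genes, had ranked summits at 2, both at 52.48. A cluster of 5 glutamine genes, H08J11, was as large.

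Bound genes were found for 20 of the 21 kinds of tRNA, selenocysteine included, whose only gene lies close to a coding start. Lysine genes were bound at 34.8% (16 of 46, 22.7 to 49.2), alanine genes at 35.3% (12 of 34) and glycine genes, the most numerous, at 23.6% (13 of 55). Glutamine, methionine and asparagine stood lowest among the others, at 14.8%, 15% and 15%, and of the 20 kinds with 10 or more genes, all but histidine have an interval that includes the overall 24%. None of the 20 histidine genes was bound (0 of 20, which allows a share of up to 15%), against 24.8% of all others, a difference of -24.8 points (-28.5 to -8.38). Histidine was singled out after the values were seen. At 8 of the 20 a ranked summit was found, and their median signal was 51.24. Of the 15 histidine genes whose windows had at least 60% single-place 50-mers, none was bound and 8 had a ranked summit.

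**Figure D5:**
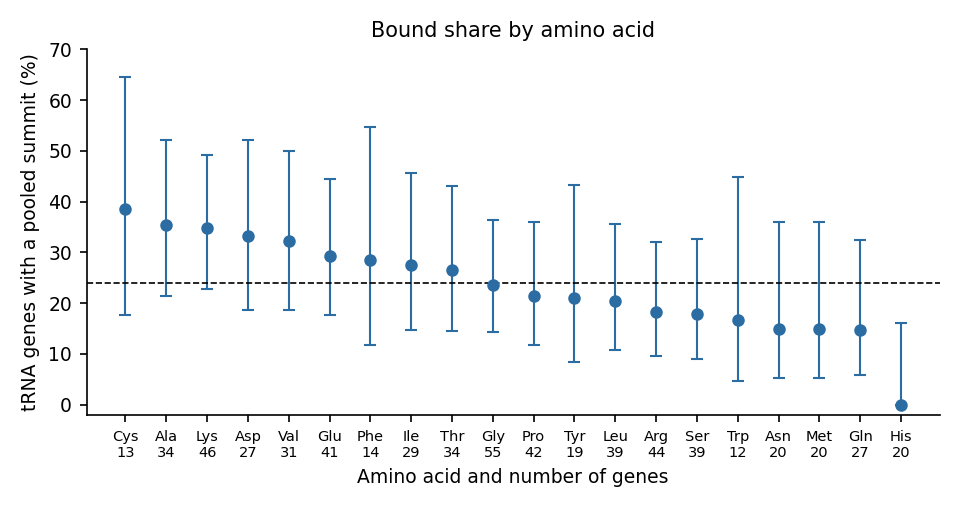
Share of tRNA genes with a pooled summit, in percent, by the amino acid the tRNA carries, for kinds with 10 or more genes, ordered by share and with the number of genes under each name. Points are shares, bars 95% Wilson intervals and the dashed line the share of all genes, 24%, and histidine stands at 0 of 20.

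Families of identical genes often held both bound and unbound genes. The 612 genes have 200 different bodies, and 469 have at least 1 exact copy. Of the 57 families of identical bodies, 36 held both bound and unbound genes, 21 had no bound gene and none had all of its genes bound. With 24% of all tRNA genes bound, few fully bound families would arise in any case, and the number expected by chance was not computed. Unbound copies often held a pooled ranked summit, which was found at 20 of the 24 proline genes and 12 of the 14 lysine genes. Genes with a copy were bound at 26% and genes with a body of their own at 17.5%, a difference of 8.53 points (0.536 to 15.3), but the share was 11.9% for bodies in 2 to 4 copies and 28.4% for those in 10 or more. Of the 20 families with 10 or more genes, 19 had a bound gene, the exception being histidine. The leucine family of 9, all on the X chromosome, had no pooled summit, which allows a share of up to 33.3%, although 8 had a ranked one.

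The lysine family of 14 shows the range within a single body. The copies below are the bound ones of highest signal and the ones without a pooled ranked summit, each with 100 bases upstream and the gene in capitals, to set the flanks of identical genes side by side. Downstream bases were not compared. The pooled signal was 239.4 at T23F1.t1 and 113.6 at K04C2.t3. The summit at T23F1.t1 also lay in the window of the proline gene T23F1.t2, so that signal cannot be assigned to the lysine gene alone. K04C2.t3 had 31.9 in replicate 1 and 75.7 in replicate 2. C09B9.t1 had ranked summits of 28.89 and 48.91 in the replicates and none in the pooled ranked list, and C25F6.t4 had no ranked summit in any of these lists. At least 90.8% of 50-mers are at a single place in the windows of C09B9.t1 and C25F6.t4.
T23F1.t1 (V:15464986-15465158, + strand): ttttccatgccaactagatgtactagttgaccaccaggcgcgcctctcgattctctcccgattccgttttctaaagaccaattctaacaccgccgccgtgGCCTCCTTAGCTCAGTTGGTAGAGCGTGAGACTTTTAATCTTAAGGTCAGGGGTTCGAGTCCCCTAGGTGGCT
K04C2.t3 (III:6887728-6887900, - strand): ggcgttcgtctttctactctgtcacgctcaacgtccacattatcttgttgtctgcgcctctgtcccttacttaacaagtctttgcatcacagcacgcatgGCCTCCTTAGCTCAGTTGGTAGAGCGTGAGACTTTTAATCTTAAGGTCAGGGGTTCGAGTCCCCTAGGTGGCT
C09B9.t1 (IV:5038820-5038992, + strand): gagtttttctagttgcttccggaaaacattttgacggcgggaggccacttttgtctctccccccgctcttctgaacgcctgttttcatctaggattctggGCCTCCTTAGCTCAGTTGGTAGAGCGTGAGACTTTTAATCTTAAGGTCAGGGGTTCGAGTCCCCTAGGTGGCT
C25F6.t4 (X:5451204-5451376, - strand): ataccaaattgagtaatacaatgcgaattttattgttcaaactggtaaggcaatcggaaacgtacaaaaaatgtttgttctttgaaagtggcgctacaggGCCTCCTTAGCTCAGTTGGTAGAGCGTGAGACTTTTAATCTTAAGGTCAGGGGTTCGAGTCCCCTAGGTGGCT

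Heat shock elements were nearly absent from the peaks at tRNA genes. The element was searched on both strands as TTC, GAA and TTC with 2 bases of any kind between neighbours, without mismatch and within 100 bp of the summit. It was found at 1 of the 140 tRNA peaks (0.714%, 0.126 to 3.93) and at 488 of all 2935 pooled peaks (16.6%). Among the 2302 other peaks with signals in the range of the bound tRNA genes it was found at 11.4%. With at most 1 mismatch the shares were 7.14% at tRNA peaks and 24.3% at those other peaks. The tRNA windows themselves held the perfect element in 6 of 612 cases (0.98%), beside 3.44% of genome windows of 472 bp. In the same signal range, tRNA peaks were overlapped by a replicate 1 peak in 20.7% of cases against 33% for other peaks, and by a replicate 2 peak in 57.9% against 53.8%.

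The single exception was C06B8.t1, an alanine gene in an intron of nhr-150 (V:15479985-15480056, - strand). It was in both replicate lists, with a pooled signal of 132.9 and ranked values of 72.5 and 69.34, and its summit lay 22 bp inside the gene. The summit with 100 bp on each side is shown on the + strand with the element in capitals, to place it beside the gene.
C06B8.t1 summit (V:15479934-15480134, + strand): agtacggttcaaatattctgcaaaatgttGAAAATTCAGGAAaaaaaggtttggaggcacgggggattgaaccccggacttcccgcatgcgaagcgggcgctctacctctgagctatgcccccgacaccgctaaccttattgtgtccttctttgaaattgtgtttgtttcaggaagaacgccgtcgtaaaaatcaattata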

How the data were processed

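Peak lists on ce11 from chromatin immunoprecipitation and sequencing were used, as deposited by the authors for 2 replicates of 1 group: a thresholded and a ranked list per replicate, and pooled and conservative lists of both. The signal of each peak, deposited by the authors, is the peak caller's value. The −log10 of the irreproducible discovery rate (IDR), a measure of how well ranks agree between peak sets, was also deposited by the authors. For the aligner, peak caller, read length and depth: not given in the sources used here. In the ranked tables, 16 columns of single peak sets whose sample is not named were not used, and a second ranked table was not used. The labels name a possible control experiment, whose data were not analysed here.

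Genes came from Ensembl release 115, and amino acids, pseudogenes and sequence from RefSeq on the same assembly. A gene was bound when a summit lay within its body plus 200 bp. Values per replicate are of the strongest ranked summit in the window. Shares carry 95% Wilson intervals and differences Newcombe intervals, with no p-value. A share of 0 allows 3 counts of the total. The motif window was 100 bp on each side of the summit and mappability was counted as 50-mers found at a single place. The genes named were the 15 of strongest pooled signal, the 5 strongest without a pooled summit, the 3 largest clusters, the 3 strongest of each replicate list absent from the other, and bound genes with an element; other names were chosen after values were seen. The members and lists were chosen with earlier results of these data known. Alternatives were other flanks, lists, overlaps, cluster gaps and motif limits. The window counting was tested on simulated summits. Python 3.11.15 was used with numpy 2.4.6, pandas 2.3.3, scipy 1.17.1 and matplotlib 3.10.9.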

Additional observations from a re-analysis of the deposited data

How the results depend on the processing

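The share of bound tRNA genes, 24%, lay within its own interval with 500 bp flanks, the conservative list, overlap of at least 1 bp, merged windows and single-place windows. It was 14.5% with no flank and 10.8% with the pooled peaks above their median signal, and 5.56% to 16.3% in a single replicate's list. The share in the pooled ranked list was 35.1% at an IDR of 0.05 or less, 24.2% at 0.01 or less, 40.5% with no flank and 82.7% with 500 bp. The share in both replicate lists was 1.47% with no flank. The share of tRNA peaks with an element was 7.14% at 1 mismatch or fewer. The difference between tRNA genes and tRNA pseudogenes, 20.7 points, was 11.7 with no flank, 8.39 with the pooled peaks above their median and 4.12 to 14.4 in a single replicate's list, and each of these intervals excluded 0. The cause was not tested.

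The differences by chromosome, cluster, position and start distance stayed within their intervals under all alternatives run. For X against autosomes the interval excluded 0 in each replicate's list and with the pooled peaks above their median (-5.12 points, -9.94 to -0.159). Clustered minus lone genes changed sign, up to 4.68 points with the conservative list. Intronic minus intergenic genes ran from -0.673 to 0.0111 points in a single replicate's list, and the start-distance difference from 2.69 to 4.89. The start-distance difference was 1.06 points with no flank and its interval excluded 0 with the conservative list (15.1 points). Single-place windows and the alternatives for pseudogenes were added after the data were seen. No paired analysis was possible because there is 1 group. Without read counts, a gene with no summit is one where none was detectable at this depth.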
